A study of Mus musculus with 12 samples.

Results

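The genes described here are 33 genes of DNA repair: the homologous recombination genes with the kinases that signal DNA damage, the Fanconi anaemia genes, and a pair of mismatch repair genes, Msh6 and Pms2. They were chosen by symbol from a list of names, and all 33 were found among the 23337 gene symbols of the count table. All 33 also passed the filter on low counts, which left 12406 genes to test. Homologous recombination repairs a broken chromosome by copying the intact sister, so it acts mainly after DNA has been replicated. The Fanconi pathway unhooks crosslinks between the DNA strands with help from the same machinery, and mismatch repair corrects base errors left behind by replication. Many of these genes are transcribed in step with the cell cycle, under E2F factors and their repressor counterpart, the DREAM complex.

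RNA was sequenced from 12 libraries of NU1, a line of normal mouse urothelial cells that became immortal on its own during passaging. There were 4 groups of 3 libraries. Proliferating cells carried the hairpin shNT (genotype label WT) or the hairpin sh4 (genotype label Stag2-KD). Cells titled quiescent (differentiation day 7) also carried either hairpin. Stag2 encodes a cohesin subunit, and lentiviral shRNAs were used to lower it, so the knockdown rests on the 1 hairpin sh4 in 1 cell line. Cells were made quiescent by growth to confluence and then rosiglitazone at 1 µM, which activates PPAR gamma, and erlotinib at 0.5 µM, which blocks the EGF receptor kinase. The quiescent groups therefore share confluence, both drugs and the differentiation named in their titles, and these cannot be told apart from quiescence itself. Each group has 1 library from each of experiments 5, 7 and 9, and the experiment coincides with the batch in the labels. None of the labels says whether the cultures differed in any other way, so p-values measure the spread between these libraries. The title names the DREAM complex and the maintenance of quiescence, and the comparisons ask how quiescence and the loss of Stag2 change these transcripts.

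Library totals ran from 14524429 to 21987539 counts. Stag2 was at 113 to 146 CPM (the depth-scaled unit used here, with totals adjusted by TMM) in proliferating controls and at 24.6 to 33.3 CPM in proliferating knockdown cells. In quiescence it was at 108 to 128 CPM in controls and at 9.43 to 15.3 CPM in knockdown cells, so the libraries matched their hairpin labels. Less Stag2 was left in quiescent than in proliferating knockdown cells, so the hairpin comparisons of the 2 states differ in depth of knockdown. Of 18 urothelial and epithelial markers, Krt8, Krt18, Krt7 and Krt19 were abundant, and the summed level of the 18 was 12300 to 23400 CPM. The basal marker Trp63 was at 0 in every library, and no uroplakin exceeded 8.91 CPM. Summed fibroblast markers reached at most 2.27 CPM. The proliferation gene Mki67 fell from 185 to 225 CPM in proliferating controls to 0.552 to 7.93 CPM in quiescent controls.

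Promoter windows of 300 bases (250 before and 50 after the RefSeq start site, GRCm38.p6) were found for 27 of the 33 genes, and 4 are printed to show the E2F-like letters that recur among them. Rad50, Nbn, Exo1, Rad54b, Xrcc2 and Fancd2 were not in the table. Chek1 (chr9:36726609-36726908, minus strand), Brip1 (chr11:86201144-86201443, minus strand) and Rad51ap1 (chr6:126939538-126939837, minus strand) are genes whose transcripts fell in quiescence. Rad52 (chr6:119902448-119902747, plus strand) is one whose transcript did not pass the test. Each is written 5′ to 3′ on the gene's strand, with E2F-like matches and CCAAT boxes, on either strand, in capitals.
Chek1: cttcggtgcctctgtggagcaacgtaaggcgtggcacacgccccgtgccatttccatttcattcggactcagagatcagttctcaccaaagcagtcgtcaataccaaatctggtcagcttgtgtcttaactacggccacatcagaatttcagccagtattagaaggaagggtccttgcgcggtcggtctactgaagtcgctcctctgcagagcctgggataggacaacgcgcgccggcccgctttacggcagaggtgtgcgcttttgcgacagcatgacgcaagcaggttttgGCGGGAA
Brip1: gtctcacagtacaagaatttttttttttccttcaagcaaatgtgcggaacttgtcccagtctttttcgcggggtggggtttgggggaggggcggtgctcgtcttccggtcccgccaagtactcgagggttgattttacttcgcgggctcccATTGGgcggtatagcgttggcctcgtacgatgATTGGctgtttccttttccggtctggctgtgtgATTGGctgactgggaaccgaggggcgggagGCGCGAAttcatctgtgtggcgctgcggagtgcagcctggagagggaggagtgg
Rad51ap1: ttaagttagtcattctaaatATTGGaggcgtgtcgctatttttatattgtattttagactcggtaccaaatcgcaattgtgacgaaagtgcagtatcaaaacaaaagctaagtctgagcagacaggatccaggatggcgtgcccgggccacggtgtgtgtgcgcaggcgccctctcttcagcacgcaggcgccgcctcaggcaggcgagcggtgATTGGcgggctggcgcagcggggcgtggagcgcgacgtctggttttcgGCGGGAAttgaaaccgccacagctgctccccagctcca
Rad52: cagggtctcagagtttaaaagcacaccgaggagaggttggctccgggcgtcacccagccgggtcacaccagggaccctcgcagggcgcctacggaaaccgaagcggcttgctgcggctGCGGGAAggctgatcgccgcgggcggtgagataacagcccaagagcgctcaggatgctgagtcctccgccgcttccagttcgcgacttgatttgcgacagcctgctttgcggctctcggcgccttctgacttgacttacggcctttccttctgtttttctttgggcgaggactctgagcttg

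An E2F-like match was TTCCCGC, the variant TTCGCGC, the variant TTGCCGC or the variant TTGGCGC, on either strand, and no match overlapped a CCAAT box. Counting the first base after the start site as +1, the match began at position 44 in Chek1, where it ends the window, at -4 in Brip1, at 13 in Rad51ap1 and at -132 in Rad52. Of the 27 genes with a window, 16 (59.3%) had at least 1 match, against 20% of 8900 tested genes. Counted per window and not per gene, 9.57% of all 32851 RefSeq promoter windows held a match. Matches lay within the 50 bases after the start also in Atm, Brca1, Fanci, Msh6 and Pms2. Among genes whose transcript fell in quiescent controls, 12 of 20 had a match. Among the rest 4 of 7 did, namely Atm, Chek2, Fancg and Rad52. When a further T was required before these letters, 5 of 27 genes (18.5%) matched, against 4.82% of the tested genes. CCAAT, the box bound by NF-Y, stood in 17 of 27 (63.0%), against 43.6% of the tested genes, with 3 copies in Brip1 and 2 in Rad51ap1. TTTGAA, the core of the cell cycle homology region that DREAM and related complexes recognise, was in 2 of 27 (7.41%), against 14.0%. A match of letters is a description of the sequence and not a measured binding site, and no binding was measured here. In GENCODE M21 the whole genes span chr9:36708482-36727065 for Chek1 and chr11:86058138-86201193 for Brip1.

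In quiescent control cells 24 of the 33 transcripts were lower than in proliferating controls and 0 were higher (edgeR quasi-likelihood test, Benjamini-Hochberg adjusted p under 0.05 over all genes tested). Of all tested genes 11.7% passed the test in that direction. The median log2 fold change of the 33 was -2.02, and that of all tested genes was 0.00468. The fall was uneven: 11 genes fell by more than 3 on the log2 scale and 7 by more than 4, while 9 did not pass the test. In 25 of the 33 the highest quiescent library lay below the lowest proliferating one, which held for 18.5% of all tested genes. In bulk RNA, fewer cells that express a gene and less RNA per cell cannot be told apart. All 13 genes of a list that marks S phase and all 12 of a list that marks G2 and M also fell, with medians of -2.70 and -4.70, and their part in the fall of the repair genes was not tested.

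**Figure D1:**
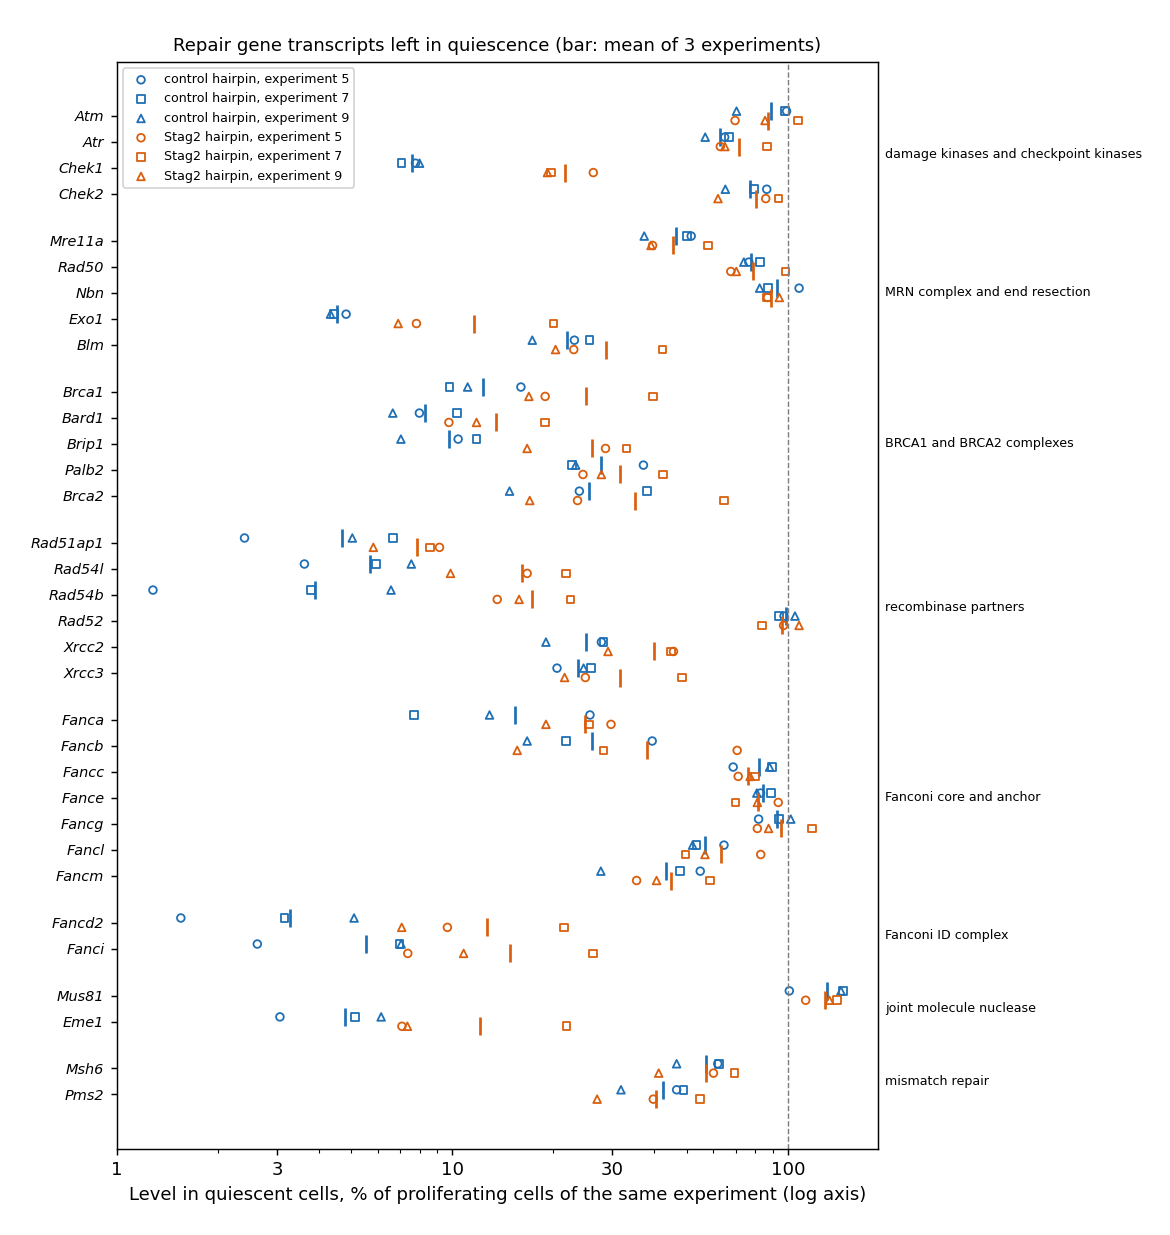
Level of each repair gene in quiescent cells as a percentage of the proliferating cells of the same experiment and hairpin (log x axis), by role. Circles, squares and triangles are experiments 5, 7 and 9, blue is the control hairpin, orange the Stag2 hairpin, short bars are means of 3 experiments, and the dashed line is 100%; Fancd2 has the lowest control mean, 3.27%, and Mus81 the highest, 131%.

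Among the damage kinases, the checkpoint kinase Chek1 had by far the largest fall. Chek1 encodes the kinase that ATR activates to hold the cell cycle when replication forks stall. In experiments 5, 7 and 9, in that order, Chek1 stood at 17.8, 26.0 and 25.4 CPM in proliferating controls and at 1.38, 1.84 and 2.03 CPM in quiescent controls. The groups were far apart, with 7.60% ± 0.486 (SD, n = 3) of the proliferating level left. Its log2 fold change was -3.71 (SE 0.286, adjusted p = 2.99e-05 in edgeR). Atr, the kinase that senses single-stranded DNA, changed by -0.66 (SE 0.190, adjusted p = 0.0311). Atm, the kinase activated by double-strand breaks, and Chek2, its main checkpoint target, did not pass the test, at -0.16 (adjusted p = 0.559) and -0.40 (adjusted p = 0.25). In the third quiescent control library, that of experiment 9, Atm was at 37.5 CPM, below the 57.3 and 59.5 CPM of the others.

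The MRN complex, which binds broken ends, did not move as a unit. Mre11a, its nuclease, fell by 1.13 on the log2 scale (SE 0.186, adjusted p = 0.00207), from 36.6 to 46.0 CPM over the 3 proliferating controls to 17.2 to 21.8 CPM in quiescence. Rad50, its ATPase, went from 98.9 to 116 CPM to 75.6 to 85.9 CPM without overlap, and its change of -0.37 did not pass the test (adjusted p = 0.0686, and 0.0259 with the experiment as a block). Nbn, the subunit that recruits ATM, changed by -0.12 (adjusted p = 0.622), and its groups overlapped. Of the enzymes that act on the resected ends, the exonuclease Exo1 fell further than the helicase Blm. Exo1 was at 18.6, 22.1 and 27.6 CPM in proliferating controls and at 0.897, 0.979 and 1.19 CPM in quiescent controls. The 3 experiments gave similar values, with 4.53% ± 0.256 (SD, n = 3) left. Blm kept 22% ± 4.29 (SD, n = 3).

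All 5 genes of the BRCA1 and BRCA2 complexes fell. Brca1, the ubiquitin ligase that promotes recombination, was at 59.2, 46.9 and 55.0 CPM in proliferating controls and at 9.45, 4.59 and 6.08 CPM in quiescent controls. That is a log2 fold change of -3.0 (SE 0.299), and experiment 5 kept the highest quiescent level. Bard1, the obligate partner of BRCA1, fell by 3.60 on the log2 scale (SE 0.332) and Brip1, the BRCA1-bound helicase also known as FANCJ, by 3.38 (SE 0.252). Brip1 went from 21.2, 24.3 and 28.02 CPM to 2.21, 2.88 and 1.97 CPM. Palb2, which bridges BRCA1 and BRCA2, and Brca2, a central mediator of recombination, fell less, by 1.90 (SE 0.315) and 2.02 (SE 0.362). For Brca2 the experiments differed, with 38.0% left in experiment 7 and 14.8% in experiment 9.

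The genes that assist strand exchange held some of the steepest falls and also the flattest transcript of the 33. Rad51ap1, which stimulates strand pairing, fell by 4.29 on the log2 scale (SE 0.466), and the quiescent controls had 3, 14 and 13 counts. The DNA translocases Rad54l and Rad54b fell by 4.10 (SE 0.361) and 4.58 (SE 0.547). Rad54b rested on 1, 5 and 7 counts in quiescent controls of experiments 5, 7 and 9, against 96, 140 and 112 in proliferating controls, so its percentage left, 3.88 ± 2.64 (SD, n = 3), is imprecise. Xrcc2 and Xrcc3, which also promote strand exchange, fell by 2.06 (SE 0.293) and 2.10 (SE 0.358), and about as much of each was left, 25.0% ± 5.21 and 23.7% ± 2.83 (SD, n = 3). Rad52, an annealing factor, was at 10.8, 11.5 and 12.2 CPM in proliferating controls and at 10.5, 10.8 and 12.8 CPM in quiescent controls. The groups of Rad52 overlapped, its log2 fold change was -0.01, and the 95% interval was -0.36 to 0.34.

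The Fanconi genes fell to very different degrees. The ID complex, which is ubiquitinated at the crosslink, is encoded by Fancd2 and Fanci, and both fell steeply. Fancd2 stood at 17.8, 21.3 and 29.3 CPM in proliferating controls and at 0.276, 0.673 and 1.49 CPM in quiescent controls, a log2 fold change of -4.78 (SE 0.639, adjusted p = 0.000601). Those quiescent values rest on 4, 11 and 25 counts. Fanci changed by -4.11 (SE 0.520), with 0.552, 1.65 and 1.91 CPM in quiescent controls.

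The core complex, which attaches that ubiquitin, and its anchor Fancm fell less, or did not pass the test. Fanca fell by 2.75 on the log2 scale (SE 0.335), Fancb by 2.02 (SE 0.435), Fancm, a translocase that brings the complex to DNA, by 1.23 (SE 0.247), and Fancl, the ubiquitin ligase subunit, by 0.84 (SE 0.237, adjusted p = 0.0300). Fanca was uneven, with 9.11 CPM in the quiescent control of experiment 5 and 3.30 and 4.29 CPM in experiments 7 and 9. Fancc, Fance and Fancg did not pass the test, with log2 fold changes of -0.29, -0.24 and -0.14. Their quiescent control levels overlapped those of proliferating controls and averaged 82.2%, 84.2% and 92.7% of them.

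The nuclease formed by MUS81 and EME1, which cuts joined DNA molecules, had one subunit, Eme1, that fell and one, Mus81, that did not pass the test. Eme1 was at 9.03, 11.95 and 15.6 CPM in proliferating controls and at 0.276, 0.612 and 0.954 CPM in quiescent controls, a log2 fold change of -4.28 (SE 0.628, adjusted p = 0.00102). Mus81 was at 40.7, 27.4 and 31.2 CPM and then at 41.3, 39.95 and 45.02 CPM. Its change of 0.35 did not pass the test (adjusted p = 0.113), and with the experiment as a block the adjusted p was 0.0485. In mismatch repair, Msh6, which recognises base mismatches, fell by 0.82 (SE 0.139) and Pms2, an endonuclease subunit, by 1.29 (SE 0.276). Msh6 stayed abundant, at 74.4 to 89.6 CPM over the quiescent controls, against 137 to 160 CPM in proliferating controls.

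**Figure D2:**
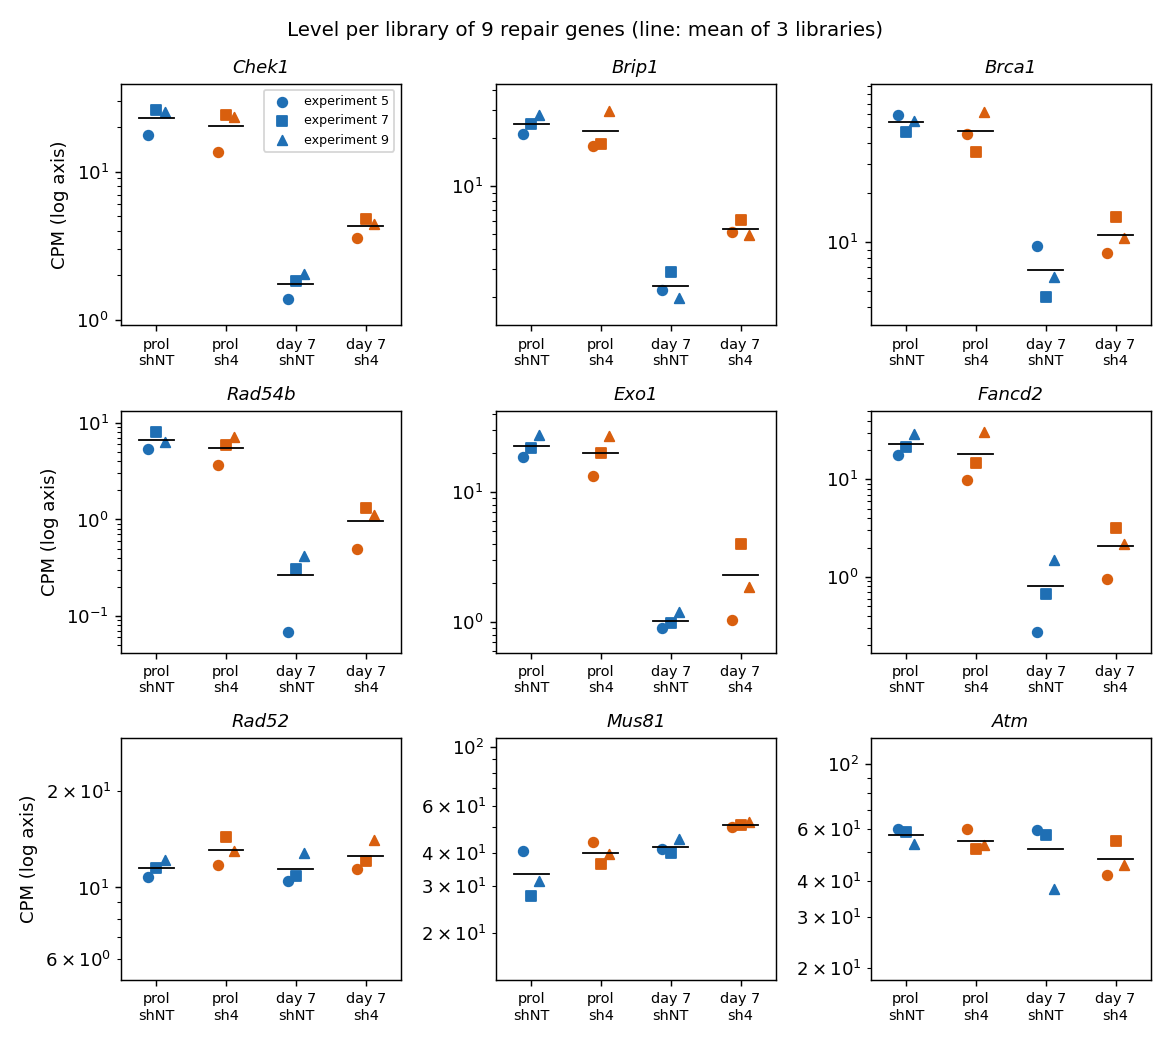
CPM per library (log axes) of 9 repair genes in the 4 groups, with experiments as circles (5), squares (7) and triangles (9) and a line at the mean of 3 libraries; blue is shNT and orange sh4. Chek1 and Brip1 are higher in every quiescent knockdown library than in every quiescent control library, and Rad52 stays between 10.5 and 14.4 CPM in all 12.

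Levels can be compared between genes only per length, so CPM were divided by the merged exon length of each gene (GENCODE release M21, GRCm38). In proliferating controls Msh6 had the highest level, 33.9 CPM per kb, then Rad50 with 19.6, while Rad54b had the lowest, 1.14. Mus81 came next after Rad50, with 9.28. In quiescent controls the same 3 genes came first in the same order, Msh6 at 19.1, Rad50 at 15.2 and Mus81 at 11.8 CPM per kb. The bottom was held by Rad54b at 0.0457 and Rad54l at 0.0750 CPM per kb. Neighbours in these orders often lay within 1 SD of each other, such as Rad52 (2.00 ± 0.121 CPM per kb) and Fancg in proliferating controls. Rad52 moved from rank 24 of 33 to rank 10 at nearly the same level (1.98 CPM per kb in quiescence), and Chek1 moved from rank 10 to rank 23.

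**Figure D3:**
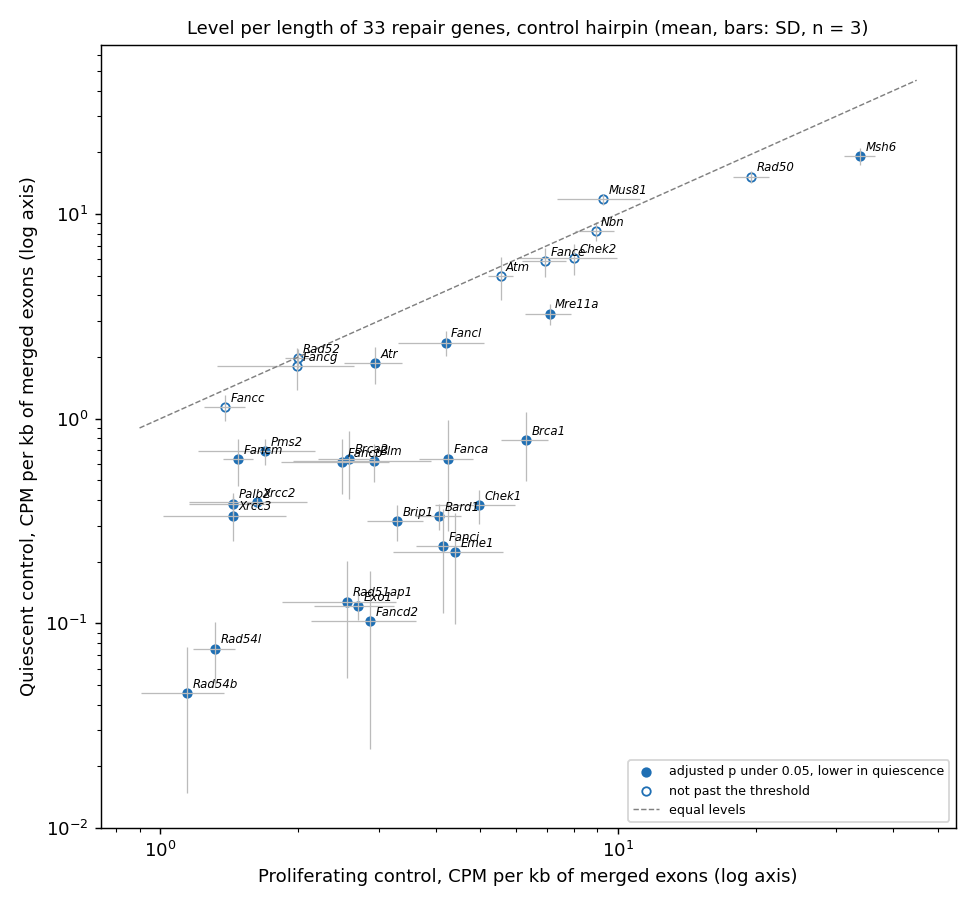
Mean level per length of the 33 repair genes with the control hairpin, in CPM per kb of merged exons, proliferating (x) against quiescent (y), both log axes, with bars for the SD of 3 libraries. Filled points passed the test as lower in quiescence, open points did not, and the dashed line marks equal levels; Rad54b is lowest on both axes and Msh6 highest.

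With the Stag2 hairpin, quiescence lowered 22 of the 33 transcripts and raised 0 by the same edgeR test, against 10.8% of all tested genes lower. The median log2 fold change was -1.67. In 26 genes the quiescent libraries all lay below the proliferating ones, against 19.1% of all tested genes, and Mus81 was the 1 gene for which they all lay above, against 18.1% of all tested genes. Atr and Fancl missed the threshold here (adjusted p = 0.102 and 0.0569 in edgeR). Without the libraries of experiment 9 the count of lower genes was 11. The largest falls were those of Rad51ap1 (-3.74), Eme1 (-3.17), Fancd2 (-3.15) and Exo1 (-3.14). Of the 24 genes that were lower in control cells, 21 kept a larger mean share of their proliferating level in knockdown cells. Of the other 9 genes 3 did. The 24 were picked by their fall in control cells, which favours a larger share in knockdown cells, so these counts are not a test. In controls 10 of the 24 kept under 10%, and in knockdown cells 1 did, Rad51ap1 with 7.84% ± 1.78 (SD, n = 3). Chek1 kept 21.7% ± 3.94, Brip1 26.1% ± 8.44 and Fancd2 12.7% ± 7.68 (SD, n = 3). The test of that difference is the interaction, given further on.

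In proliferating cells no difference between hairpins passed the test for any of the 33 genes. The edgeR count was 0 of 33 past the adjusted threshold and 0 at an unadjusted p under 0.05, and DESeq2 gave 0 and 0. Of all tested genes 0.0242% passed the adjusted threshold and 1.84% had an unadjusted p under 0.05 in edgeR. The log2 fold changes ran from -0.49 for Xrcc2 to 0.27 for Mus81, with a median of -0.16. Of the 33, 27 were negative and 6 positive, while 49.5% of all tested genes were positive. In the fit without a block all 33 intervals of 95% included 0. Of these, 24 lay within 1 on the log2 scale either way. With the experiment as a block 0 of the 33 passed the adjusted threshold, and 3 had an unadjusted p under 0.05, all lower. These edgeR p-values were 0.0352 for Xrcc2, 0.0462 for Rad51ap1 and 0.0497 for Mre11a. Mre11a and Fancm were lower in all 3 knockdown libraries than in all 3 controls, which held for 2.65% of all tested genes, with Mre11a at 36.6, 43.5 and 46.0 CPM in controls and at 31.2, 35.0 and 34.7 CPM in knockdown cells. Those groups did not overlap, and the log2 difference of -0.32 had an interval of -0.72 to 0.08.

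In quiescent cells the transcripts of Chek1, Brip1 and a few more stood above control with the Stag2 hairpin. The log2 differences were 1.28 for Chek1 and 1.19 for Brip1, but no such difference passed the test without a block. By edgeR without a block 0 of 33 passed the adjusted threshold, against 0.435% of all tested genes in either direction, and 7 had an unadjusted p under 0.05, against 12% of all tested genes. With the experiment as a block 3 passed, all higher, Chek1, Brip1 and Rad54b, against 1.59% of all genes higher. DESeq2 called 2, Chek1 and Brip1, out of 377 genes that it called in all, against 54 by edgeR without a block. It had 8 of the 33 at an unadjusted p under 0.05, and its share over all genes was not computed. The median log2 fold change of the 33 was 0.11, beside 0.0157 for all tested genes. In 5 genes (Chek1, Brip1, Rad54l, Rad54b and Mus81) every knockdown library was above every control library, against 10.2% of all tested genes.

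Chek1 was at 1.38, 1.84 and 2.03 CPM in quiescent controls and at 3.58, 4.77 and 4.45 CPM in quiescent knockdown cells. These values rest on 20, 30 and 34 counts against 79, 80 and 76, and the 3 experiments gave log2 differences of 1.31, 1.33 and 1.09. The fitted log2 fold change was 1.28 (SE 0.275, adjusted p = 0.0772 in edgeR, and 0.00471 with the experiment as a block). The knockdown level was still far below the 13.6 to 24.2 CPM of proliferating knockdown cells. Brip1 was at 2.21, 2.88 and 1.97 CPM in controls and at 5.12, 6.08 and 4.92 CPM in knockdown cells. Its log2 fold change was 1.19 (SE 0.243, adjusted p = 0.0651 in edgeR, and 0.0238 with the block), and the experiments gave 1.17, 1.05 and 1.27.

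The RAD54 translocases were next. Rad54l was at 0.345, 0.673 and 0.716 CPM in quiescent controls and at 1.09, 1.79 and 1.17 CPM in quiescent knockdown cells. The groups did not overlap, and the log2 fold change of 1.20 (SE 0.356) had an edgeR adjusted p of 0.193, or 0.0691 with the block. Rad54b, with 1, 5 and 7 counts in controls and 11, 22 and 19 in knockdown cells, differed by 1.82 on the log2 scale (SE 0.547), with an edgeR adjusted p of 0.197, or 0.0385 with the block. Over the alternative settings its log2 fold change ran from 1.39 to 2.28, the widest span of the 3 genes called with the block.

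In the genes of the ID complex, in Exo1 and in Eme1 the size of the difference varied between experiments. Fancd2 was at 0.276, 0.673 and 1.49 CPM in quiescent controls and at 0.952, 3.16 and 2.17 CPM in quiescent knockdown cells, which overlap. Its log2 fold change of 1.32 (SE 0.622) did not pass the test (edgeR adjusted p = 0.436). Exo1 was at 1.04, 3.996 and 1.88 CPM in quiescent knockdown cells, and its within-experiment log2 differences were 0.19, 1.91 and 0.61. Brca1 differed by -0.14, 1.60 and 0.78. Fanci and Eme1 gave log2 fold changes of 1.16 and 1.06 with adjusted p-values of 0.391 and 0.562 in edgeR. In experiment 7 lay the highest quiescent knockdown level of 26 of the 33 genes, against 37.9% of all tested genes. In experiment 5 lay the lowest of 24, with no share over all genes computed. Experiment 5 also held the largest number of lowest levels in each other group. That number was 20 in proliferating controls, 21 in proliferating knockdown cells and 15 in quiescent controls.

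Several genes gave narrow intervals that included 0. Atm differed by -0.12 (95% interval -0.50 to 0.26), Rad50 by -0.14 (-0.42 to 0.15), Nbn by -0.22 (-0.56 to 0.11), Rad52 by 0.13 (-0.22 to 0.48), Fancc by 0.05 (-0.31 to 0.41) and Msh6 by -0.12 (-0.43 to 0.18) on the log2 scale. In all, 20 of the 33 intervals lay within 1 either way, and that of Rad51ap1, at -0.94 to 1.16, did not. Rad51ap1 differed by 0.11 between hairpins in quiescence.

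**Figure D4:**
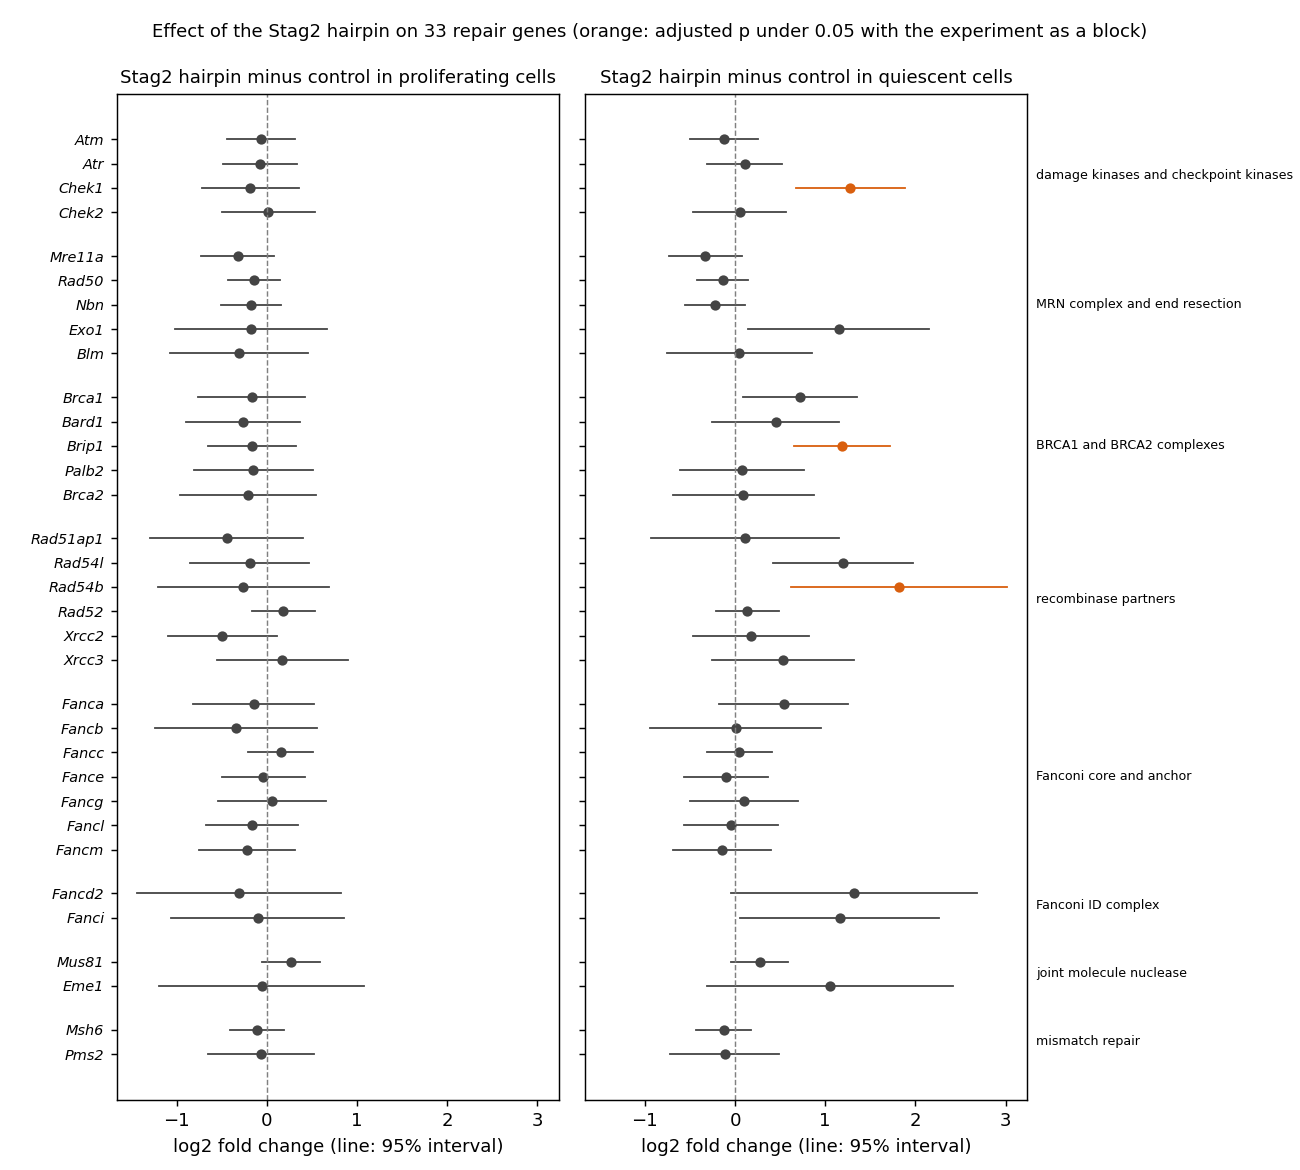
Log2 fold change of the 33 repair genes between Stag2 hairpin and control, with 95% intervals from the edgeR fit to 12 libraries, in proliferating cells (left) and quiescent cells (right). Orange marks the 3 genes past an adjusted p of 0.05 with the experiment as a block, Chek1, Brip1 and Rad54b; every interval on the left includes 0.

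Cycling markers stood higher in the same libraries. In quiescent cells the S phase list had a median difference of 0.62 between hairpins, with 2 of 13 genes past the threshold (Mcm5 and Ccne2) and 10 at an unadjusted p under 0.05. With the experiment as a block 5 of the 13 passed, and DESeq2 called 4. The G2 and M list had a median difference of 0.89, with 0 of 12 past it in edgeR and 2 at an unadjusted p under 0.05 (DESeq2 gave 0 and 3). By experiment the G2 and M medians were 1.10, 2.03 and 0.16, while those of the S phase list were 0.53, 0.79 and 0.38. Mki67 was at 0.552, 6.24 and 7.93 CPM in quiescent controls and at 5.49, 33.6 and 17.6 CPM in quiescent knockdown cells. The sum of 5 leukocyte markers was 39.6 to 61.8 CPM in quiescent controls and 110 to 169 CPM in quiescent knockdown cells, nearly all of it Csf1r, while Ptprc was at most 0.408 CPM and Cd3e was at 0. The part of either set of markers in the differences of the repair genes was not tested.

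The interaction subtracts the effect of the hairpin in proliferating cells from its effect in quiescent ones, and it was past the adjusted threshold for 0 of the 33 genes, and 0% of all tested genes passed. At an unadjusted p under 0.05 there were 6 of 33 by edgeR, against 1.77% of all tested genes. DESeq2 had 7, with no share over all genes computed, and also called 0. The 6 were Chek1, Exo1, Brca1, Brip1, Rad54l and Rad54b, all positive. Chek1 had an interaction of 1.46 (95% interval 0.65 to 2.27) and Brip1 one of 1.35 (0.63 to 2.07) on the log2 scale, each with an edgeR adjusted p of 1. A different response of these genes to the hairpin in the 2 states was therefore not established.

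The other genes of these pathways were held in 4 further lists, and 66 of their 77 genes were tested. In quiescent controls 33 of the 66 were lower, against 11.7% of all tested genes, and 1 was higher. The median log2 fold change was -0.53. By list, 16 of 32 homologous recombination genes, 5 of 12 Fanconi genes, 3 of 5 mismatch repair genes and 9 of 17 checkpoint genes were lower. Large falls were those of Clspn, the claspin adaptor that lets ATR activate CHEK1 (-5.38), and Fignl1, an ATPase that acts in recombination (-4.44). Fignl1 was at 45.4, 62.5 and 85.4 CPM in proliferating controls and at 2.0, 3.06 and 3.76 CPM in quiescent controls, with no overlap. Wee1, the kinase that restrains CDK1, was the 1 gene that rose, from 45.3, 41.7 and 70.7 CPM to 131, 112 and 192 CPM (log2 fold change 1.47, SE 0.303). With the Stag2 hairpin 31 were lower in quiescence and Wee1 again was higher.

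After knockdown 0 of the 66 passed in either state by edgeR without a block, with 0 at an unadjusted p under 0.05 in proliferating cells and 8 in quiescent cells. By DESeq2 0 passed in proliferating cells. With the block, and also by DESeq2, Rad51c, a gene of strand exchange, and Clspn were higher in quiescent knockdown cells. Rad51c was at 0.621, 0.673 and 0.417 CPM in quiescent controls and at 1.27, 1.91 and 1.47 CPM in quiescent knockdown cells (log2 fold change 1.43, edgeR adjusted p = 0.111, or 0.0445 with the block). Clspn was at 0, 0.551 and 0.954 CPM and at 0.861, 4.41 and 2.99 CPM (log2 fold change 2.39, edgeR adjusted p = 0.197, or 0.0490 with the block).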

How the data were processed

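RNA was measured by polyA-selected, stranded RNA sequencing, per the labels' protocols. The authors deposited whole-number counts per gene symbol, not normalized. The submitters' processing notes name Bowtie, TopHat, HTSeq, DESeq2 and mm10, with no roles. Which annotation was counted, and whether strand was used, is not given in the sources used here, so reads of overlapping or near-identical genes may be shared. The labels' protocols mention ERCC spike-ins, and the table used here has 0 ERCC rows, so scaling was relative.

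The 33 genes and all gene lists were chosen with earlier results of these data known. The test was edgeR 4.0.16 in R 4.3.3: filterByExpr (minimum count 10), TMM, 4 group means fitted to all 12 libraries with glmQLFit, glmQLFTest, and Benjamini-Hochberg adjustment over all 12406 genes at 0.05. Log2 CPM used a prior count of 2. The fit without a block was also run on simulated counts. These held no effect of experiment, so that run does not cover deviations shared by libraries of an experiment. Counting error is only part of the spread between libraries.

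Replicate numbers are experiment numbers and coincide with batch. Libraries of the same experiment deviated together from their group means (mean correlation 0.526 over 18 pairs, lowest 0.225). The fit with the experiment as a block is therefore given where it changes a call. Deviations from a group mean cancel within the group. The mean of -0.259 over 36 pairs of different experiments therefore largely follows from the first mean and is no separate observation. No pair of replicates held identical values. The alternatives were this replicate block, median-of-ratios size factors, no filter, a mean count of at least 50, only the libraries compared, DESeq2 1.42.0, and leaving out each library. Leaving out all libraries of an experiment was chosen after seeing the data.

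Every member was named. Of the other pathway genes, the 3 largest changes each way past the threshold in quiescent controls (mean log2 CPM of at least 1) and any called after knockdown were named, and Stag2 and Mki67 were checks. A gene that this rule would name is not reported here.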

Additional observations from a re-analysis of the deposited data

How the results depend on the processing

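For quiescence in control cells 18 to 26 of the 33 genes were called over all alternatives, against 24, and every called gene kept its direction. The lowest count, 18, came without experiment 7 and again without experiment 9, and Atr and Fancl were lost most often. For quiescence in knockdown cells the counts when libraries were left out ran from 11 (without experiment 9) to 23, against 22. Without experiment 7 the count was 16, and without experiment 5 it was 19. Knockdown in proliferating cells gave 0 under every alternative run. For knockdown in quiescent cells the count was 0, and it was 3 with the replicate block and 2 with DESeq2. Each library left out in turn, and each experiment left out, gave 0 there, with unadjusted counts from 3 to 11. The interaction gave 0 under every alternative run. With the replicate block the quiescence counts were 26 in both kinds of cell, 25 lower and Mus81 higher. This gained Rad50 and Mus81 in controls and also Atr and Fancl in knockdown cells. The block changed no other call of the 33. Over all 12406 tested genes the block raised the lower calls from 1448 to 2291 in controls and from 1338 to 2129 in knockdown cells. The higher calls rose from 1033 to 2083 and from 941 to 1967. A mean count of at least 50 removed Xrcc3 and left 32 genes. Leaving out libraries leaves fewer of them to estimate the spread. Counts under 10 in a quiescent control library of Rad54b, Rad54l, Rad51ap1, Fancd2, Fanci and Eme1 limit how well their falls are measured.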

Other observations

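Other repair pathways gave a comparison for the uneven fall in quiescent controls. By edgeR 11.7% of all tested genes were lower there. Of 12 end joining genes tested, which rejoin broken ends without a template, 2 were lower and 0 higher by edgeR. Their median log2 fold change was -0.19. Prkdc, the end joining kinase, differed by -0.15 and Lig4, its ligase, by -0.03, and neither passed the test. Of 20 nucleotide excision repair genes, which remove bulky lesions such as those of sunlight, 0 were lower, with 3 at an unadjusted p under 0.05 and 1 lower by DESeq2, and 1 was higher, the damage sensor Xpc, by 0.67 (SE 0.12, edgeR adjusted p = 0.00312). Of 20 base excision repair genes, which replace single damaged bases, 8 were lower and the median was -0.47. Neil3, a glycosylase, went from 6.73, 8.37 and 4.89 CPM to 0, 0.0612 and 0.358 CPM. Between the Stag2 hairpin and control in quiescent cells, 0 genes of these 3 lists passed by edgeR, with or without the block, or by DESeq2. At an unadjusted p under 0.05 there were 0, 4 and 2 by either tool, in the order of the lists above. In edgeR 12% of all tested genes had such a p in that comparison. These genes were given as context, and the difference between lists was not tested.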
